A study of Rattus norvegicus with 18 samples.

Results

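Regulators of mRNA decay and quiescence, 7 of the 32882 genes in each table, were followed in rat CD4+ T cells after gene knockout: *Btg1*, *Btg2*, *Tob1*, *Zfp36*, *Zfp36l1*, *Zfp36l2* and *Pdcd4*. They were taken by name, with earlier results of these data in view, and each was found once in each of the 3 tables. The cells were T-MBP cells, CD4+ T cells specific for myelin basic protein that cause experimental autoimmune encephalomyelitis when transferred into Lewis rats, sorted on day 3 after transfer. The 18 libraries formed 6 groups of 3: T-MBP cells electroporated with a non-targeting guide (NT control) and *Ets1*-KO cells, both from spinal cord parenchyma; NT control and *Ets1*-KO cells from spleen; and a separate set of NT control cells and *Grk2*-KO cells from spleen. All groups, controls included, received Cas9 ribonucleoprotein by electroporation after retroviral transduction with a fluorescent protein. In the co-transfer design of the methods, control cells carried BFP and KO cells EGFP, so the colour and the knockout cannot be told apart. The KO groups were cells edited in bulk and sorted by colour, so unedited cells may remain among them. The labels give neither the ages of the rats nor the animal behind each library, and p values therefore measure the spread between these libraries, which may be technical. For the parenchyma the main test took this spread from genes of similar level, not from the gene itself.

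Quiescence is the resting state of a lymphocyte, with a small cell volume and little translation, and it is kept up in part by short-lived mRNA. The BTG/TOB proteins bind the CCR4-NOT deadenylase, which shortens poly(A) tails, and BTG1 together with BTG2 is known for holding naive T cells in quiescence by keeping mRNA levels low. The ZFP36 proteins bind AU-rich elements in the ends of cytokine and cell cycle mRNAs and bring the same deadenylase to them, while PDCD4 binds the helicase eIF4A and restrains the initiation of translation.

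In the genome build of the files, Rnor_6.0, all 7 were annotated as protein-coding genes. The BTG/TOB genes lie at chr7:37812830-37815088 on the plus strand (*Btg1*), chr13:50913179-50916982 on the minus strand (*Btg2*) and chr10:81913688-81915716 on the plus strand (*Tob1*). The ZFP36 genes lie at chr1:85380087-85382569 on the plus strand (*Zfp36*), chr6:103308044-103313074 on the minus strand (*Zfp36l1*) and chr6:7417424-7421456 on the minus strand (*Zfp36l2*). *Pdcd4* lies at chr1:274625223-274648204 on the plus strand. Reads came from the 3′ ends of transcripts, so each value describes the gene as a whole and not an exon or isoform.

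ETS1, the factor removed in 2 of the 3 comparisons, binds DNA at a GGAA core. In the 250 bases before the RefSeq gene start (build GRCr8), which were matched by symbol for 7 of 7 genes, the letters GGAAG were searched on both strands (CTTCC on the printed strand is the same match). They occurred before *Btg1* and *Pdcd4* (1 match each) and before *Zfp36* and *Zfp36l1* (2 matches each), that is, before 4 of the 7 genes, and in 63.3% of all 27457 windows of that length. The longer CCGGAA, which shares its last 4 letters with GGAAG, occurred in 13.4% of all windows and in 0 of the 7. The matches are shown in 25 bases each for *Btg1* and *Pdcd4*, the genes whose knockout and control libraries from the parenchyma did not overlap, and for *Zfp36l1*, whose control level was higher in the parenchyma than in the spleen, with the matched letters in capitals.
*Btg1*, chr7:33228039-33228063, plus strand: cgcgccctcgCTTCCtctcggccgt
*Pdcd4*, chr1:262926537-262926561, plus strand: ccacgtctcaCTTCCcctagctctg
*Zfp36l1*, chr6:104668888-104668912, minus strand: cctcccccttCTTCCttttgaaagt
*Zfp36l1*, chr6:104668756-104668780, minus strand: aaagctcctcCTTCCaccctcccaa
A run of letters this common is a description of the windows and not a binding site.

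The libraries held between 898092 and 2248258 reads on genes, and the spleen *Ets1*-KO libraries (1909862 to 2248258) were deeper than their controls (898092 to 1213485). The 7 T cell markers found in the tables summed to between 2220 and 2964 RPM (the reads of a gene scaled to the library's total on genes) in all 18 libraries. The 12 myeloid markers summed to between 20.05 and 49.7 RPM in the parenchyma and between 0.761 and 10.5 RPM in the spleen, with *Adgre1* at 0 in every library, and the 10 B cell markers summed to at most 9.89 RPM, with *Blk*, *Cd22*, *Fcer2* and *Pax5* at 0 throughout. In bulk libraries a smaller share of cells with a transcript and less of it per cell cannot be told apart. *Grk2* itself fell from 158 ± 14.1 to 68.3 ± 17.4 normalized counts (mean ± SD, n = 3) in the libraries labelled *Grk2*-KO. *Ets1* read 2400 ± 150 normalized counts in control and 2551 ± 183 in knockout libraries of the parenchyma, and 2077 ± 135 and 2000 ± 324 in the spleen (n = 3 each, limma adjusted p = 0.56 and 0.854). The *Ets1* transcript therefore does not check the label *Ets1*-KO, because reads at the 3′ end do not show an edit elsewhere in the gene. According to the methods, the authors checked the editing of their single KO lines by sequencing and used a western blot for ETS1.

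First, the levels of the genes were described in the 9 control libraries, as RPM. According to the methods, T-MBP cells were activated in vitro before transfer, so these are not taken as levels of resting cells. No test was run, since the tables were scaled separately, and levels were compared for 1 gene at a time. The methods also describe different isolations, a Percoll gradient for parenchyma and erythrocyte lysis with CD4+ T cell enrichment for spleen. Tissue and isolation therefore cannot be told apart in these levels. The labels do not say whether the parenchyma and spleen libraries of the *Ets1* comparisons came from the same rats. *Zfp36l1* was higher in the parenchyma, and *Btg2* was lower there, than in any of the 6 spleen controls. No other member of the 7 separated the tissues in this way. Of the 6207 genes with enough counts in all 3 tables, 24% did so (9.54% higher and 14.5% lower in the parenchyma). *Tob1* and *Zfp36l2* were not among these genes, and nothing is read from the members' count. Other values separated the same controls: mitochondrially encoded genes held 25.4% to 27.4% of the reads in the parenchyma against 17.3% to 18.6% and 22.3% to 22.6% in the spleen controls of the *Ets1* and *Grk2* experiments, and the 6 proliferation genes summed to between 312 and 415 RPM against 3221 to 3619 and 1491 to 2119 RPM. The 14 immediate early genes summed to between 2384 and 2480, 2360 and 2657, and 1798 and 1970 RPM in the same order of groups. Single genes gave different orders, with means of 436, 45.6 and 22.1 RPM for *Egr1* and 131, 282 and 21.1 RPM for *Jun*. The part of all these values in the levels below was not tested.

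**Figure D1:**
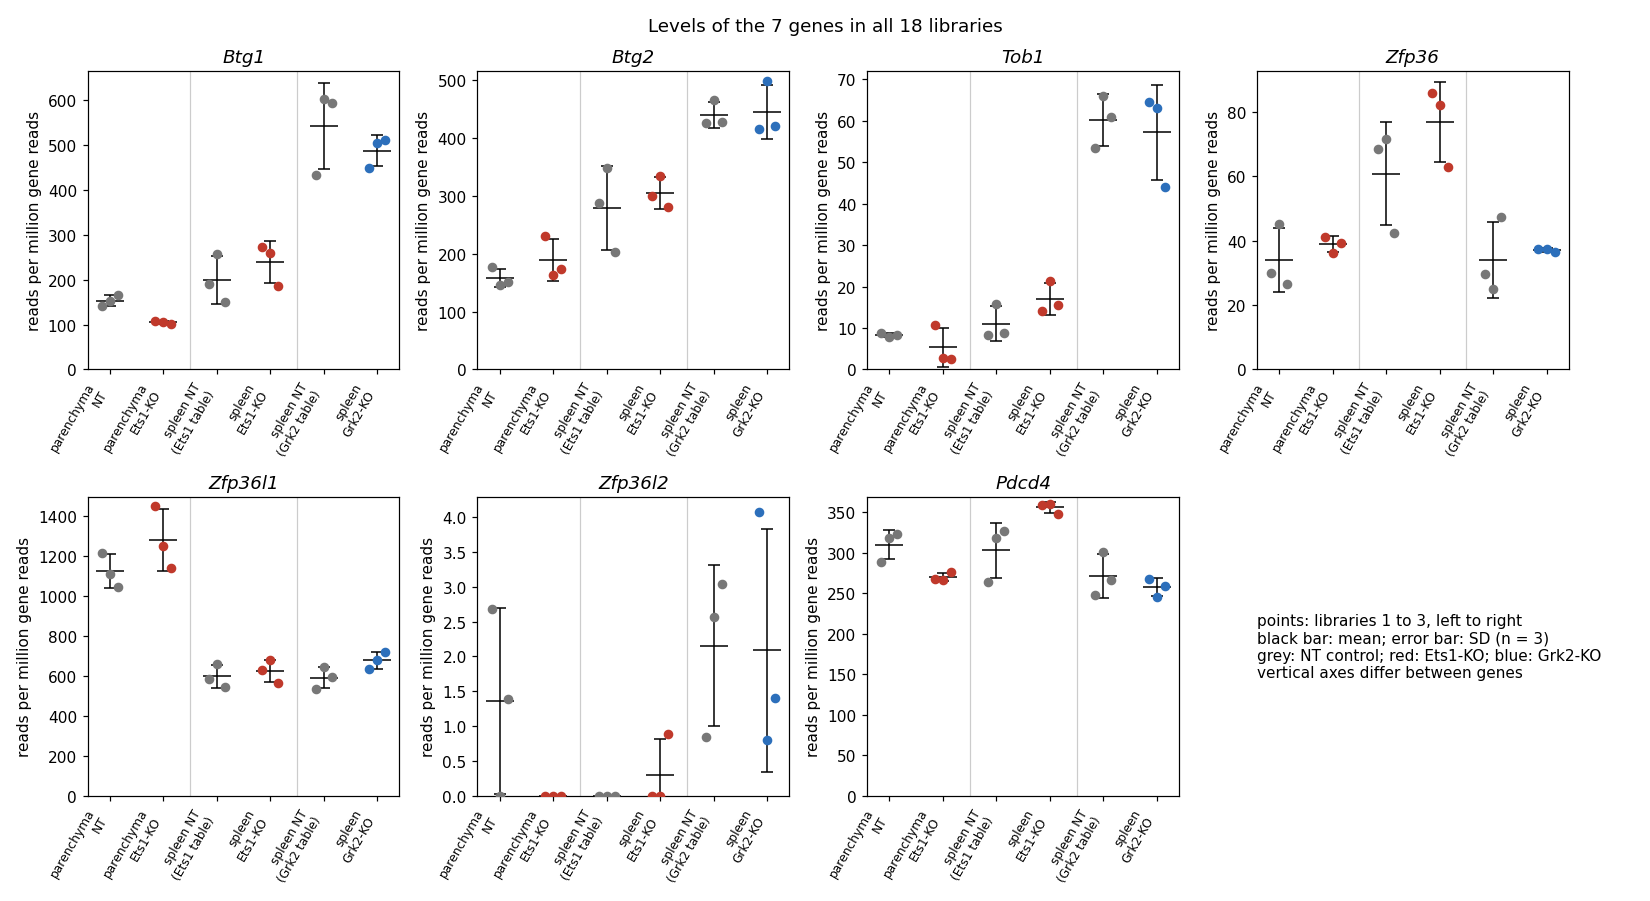
Level of each of the 7 genes in RPM (vertical axis, linear and starting at 0, its range differing between genes) in the 6 groups (horizontal axis), with 3 libraries per group as points, the mean as a black bar and the SD as an error bar. *Btg1*, *Btg2* and *Tob1* were highest in both groups of the *Grk2* spleen experiment, and *Zfp36l1* was highest in both parenchyma groups.

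*Zfp36l1*, a CCCH zinc finger protein that binds AU-rich elements, read 1213, 1110 and 1045 RPM in the parenchyma controls. It read 585, 661 and 543 RPM in the spleen controls of the *Ets1* experiment and 535, 642 and 594 RPM in those of the *Grk2* experiment. The parenchyma mean was thus 1.88-fold and 1.90-fold the spleen means, which differed from each other by less than their SD (597 ± 59.7 and 590 ± 53.5 RPM). Of the 7 genes it was the only one for which both spleen experiments gave the same ratio within this spread and did not overlap the parenchyma.

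*Btg2*, an immediate early gene and p53 target of the BTG/TOB family, read 176, 147 and 151 RPM in the parenchyma controls. The spleen controls read 288, 348 and 203 RPM in the *Ets1* experiment and 427, 466 and 428 RPM in the *Grk2* experiment, 1.77-fold and 2.78-fold the parenchyma mean. Here the 2 spleen groups did not overlap each other either.

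*Btg1* and *Tob1* did not give 1 order of the tissues. *Btg1* read 141, 152 and 166 RPM in the parenchyma, 190, 256 and 149 RPM in the spleen controls of the *Ets1* experiment, which overlapped it, and 433, 603 and 592 RPM in those of the *Grk2* experiment. *Tob1*, a further adaptor of the deadenylase, read 8.69, 7.76 and 8.35 RPM in the parenchyma, 8.24, 15.8 and 8.91 RPM in the first spleen group and 53.4, 65.9 and 60.9 RPM in the second. The spleen controls of the 2 experiments differed 2.73-fold for *Btg1* and 5.47-fold for *Tob1*, more than either differed between the parenchyma and the first spleen group (1.30-fold and 1.33-fold). Over all genes, 60.1% did not overlap between the 2 spleen control groups, 47.5% between the parenchyma and the spleen controls of the *Ets1* experiment, and 62.3% between the parenchyma and those of the *Grk2* experiment. Tissue and experiment cannot be told apart here.

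*Zfp36*, which encodes tristetraprolin, overlapped in every pair of control groups, with 33.9 ± 9.99 RPM in the parenchyma, 60.8 ± 16.1 RPM in the first and 33.9 ± 11.8 RPM in the second spleen group. *Pdcd4* stood at 310 ± 18.5, 303 ± 33.99 and 271 ± 26.8 RPM in the same order, again with every pair overlapping. *Zfp36l2*, another ZFP36 gene, was at the limit of counting: 6, 0 and 8 reads summed over the 3 controls of each group, and 25 reads over all 18 libraries. A count of 0 in 1 library allows up to between 1.33 and 3.34 RPM, depending on its depth (3 reads, counting error only), so its level was not comparable between groups.

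Across all 18 libraries, the log2(RPM + 1) levels of the BTG/TOB genes were correlated, with Pearson r = 0.91 for *Btg1* and *Btg2*, 0.95 for *Btg1* and *Tob1* and 0.90 for *Btg2* and *Tob1*. *Zfp36l1* ran the other way, with r = -0.68 against *Btg1* and -0.71 against *Btg2*. These values describe 18 libraries from 3 tables and 2 tissues, and they include the differences between groups. All 3 BTG/TOB genes were highest in the groups of the *Grk2* spleen table, and r within groups is not given here. Among 6206 other genes, those nearest to *Btg1* were *Calhm6* (r = 0.99), *Ttyh3* and *Mx1* (r = 0.98 each), and those nearest to *Zfp36l1* were *Zap70*, *Stat3* and *Sidt2* (r = 0.97 each). *Tob1* had *Btg1* itself as the third nearest gene, after *Nudcd2* (r = 0.97) and *Vopp1* (r = 0.96). *Btg2* was nearest to *S100a10*, *Trim35* and *Skp1* (r = 0.96 each), *Zfp36* to *Aen* (r = 0.91), *Mrpl34* (r = 0.90) and *Spata5l1* (r = 0.89), and *Pdcd4* to *Ccdc107*, *Raver1* and *Mxd4* (r = 0.84 each).

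Next, *Ets1*-KO cells were compared with control cells from the spinal cord parenchyma, the comparison that asks what the loss of this factor changes in the target tissue. *Btg1* fell to 68.1% of the control level, and it was the only member called. *Tob1* and *Zfp36l2* did not reach the minimum mean of 10 normalized counts (reads divided by a size factor of the library) and were not tested, which left 5 of 7 members tested. Of these, 1 was called at a limma adjusted p under 0.05, against 5.23% of all 7002 genes tested (2.96% lower and 2.27% higher). At an unadjusted p under 0.05, 4 of the 5 passed, against 16.9% of all genes tested. Of these, *Btg1* and *Pdcd4* were lower and *Btg2* and *Zfp36l1* higher. The members were chosen with earlier results of these data known, so this count is a description and not independent evidence. The same holds for the members' counts in the comparisons below.

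*Btg1* read 197, 221 and 234 normalized counts in control libraries 1 to 3 and 152, 150 and 143 in the *Ets1*-KO libraries. Every knockout library lay below every control library, as for 10.5% of the genes tested, and all 3 same-numbered pairs went down, with log2 ratios of -0.38, -0.56 and -0.71. The log2 fold change, here and below on the scale of log2(normalized count + 1), was -0.55 with SE 0.12 (limma, adjusted p = 0.00021, rank 99 of 7002 by p). The call was lost with DESeq2 with the replicate block (adjusted p = 0.151) and in limma without a trend of the variance (adjusted p = 0.287). Of the settings, DESeq2 with the block is the nearest to the authors' own test, DESeq2 with a correction per animal when applicable. Over all settings the adjusted p ranged from 0.0002 to 0.287. An exact permutation test of 3 against 3 libraries gave p = 0.1, the smallest that it can give.

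*Pdcd4* read 404, 463 and 456 normalized counts in controls and 376, 379 and 390 in *Ets1*-KO cells. Its groups did not overlap either, with the knockout libraries lower, but the log2 fold change of -0.20 (SE 0.09) did not pass (limma adjusted p = 0.205). *Btg2*, from the same family as *Btg1*, read 247, 213 and 213 normalized counts in controls and 323, 234 and 245 in *Ets1*-KO cells, with overlapping groups and a log2 fold change of 0.24 (SE 0.11, limma adjusted p = 0.197). So for these 2 BTG genes the values lay on opposite sides of 0, with only *Btg1* past the threshold.

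The ZFP36 genes gave values above 0 that did not pass. *Zfp36l1* read 1695, 1615 and 1476 normalized counts in controls and 2032, 1782 and 1611 in *Ets1*-KO cells, higher in each same-numbered pair, with a log2 fold change of 0.18 (SE 0.07, limma adjusted p = 0.137). *Zfp36* read 48.4 ± 15.3 and 54.9 ± 3.08 normalized counts, with a log2 fold change of 0.22 (SE 0.20, limma adjusted p = 0.621). Among the untested members, *Tob1* had 13, 12 and 12 reads in controls and 15, 4 and 3 in *Ets1*-KO cells, and *Zfp36l2* had 4, 0 and 2 reads against 0 in all 3. Without the minimum neither was called (limma adjusted p = 0.539 and 0.326).

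Other cell states moved with this comparison. The 6 proliferation genes summed to between 312 and 415 RPM in control and between 184 and 222 RPM in *Ets1*-KO libraries, and 2 of the 5 tested, *Mki67* and *Top2a*, fell. The 12 myeloid markers summed to between 20.05 and 40.4 RPM in controls and between 35.4 and 49.7 RPM in knockouts, with 11 of the 12 detected in each group, and the 9 markers of glia and neurons to between 52.1 and 67.3 and between 44.1 and 75.8 RPM, with *Aqp4*, *Olig1* and *Slc1a2* at 0. Of the immediate early genes, which tissue dissociation also raises, 1 rose (*Egr1*) and 1 fell (*Jun*) of 11 tested. The part of these values in the fall of *Btg1* was not tested.

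The *Ets1*-KO comparison in the spleen asks whether the same genes move outside the target tissue. None of the members was called: 0 of 6 tested (all but *Zfp36l2*) passed by limma or edgeR, against 2.22% of 6979 genes by limma. DESeq2 without the replicate block also called 0 of 6. With the block it called 0 of the 4 members to which it gave an adjusted p, which left out *Tob1* and *Zfp36*. Of the 6, 2 had an unadjusted limma p under 0.05, against 14.1% of all genes. All 6 tested members had log2 fold changes above 0, with a median of 0.26 beside 0.00 over all genes tested. The share of all genes above 0 is not given, and nothing is read from this shared direction. Without replicate 3 the value of *Btg2* was 0.0006.

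*Btg1* read 253, 331 and 210 normalized counts in the spleen controls and 357, 340 and 262 in *Ets1*-KO cells. The groups overlapped, and the log2 fold change was 0.28 (SE 0.12, limma adjusted p = 0.296). *Pdcd4* read 350, 411 and 459 in controls and 470, 471 and 488 in *Ets1*-KO cells, so that every knockout library was above every control library, as for 8.04% of genes tested. Its log2 fold change was 0.24 (SE 0.11, limma adjusted p = 0.355). *Tob1*, with 10 to 19 reads in control and 27 to 45 in knockout libraries, had the largest point estimate and the widest error, 0.63 with SE 0.32 (limma adjusted p = 0.391). *Zfp36* had a log2 fold change of 0.36 (SE 0.16, adjusted p = 0.325), *Btg2* of 0.16 (SE 0.12, adjusted p = 0.616) and *Zfp36l1* of 0.06 (SE 0.11, adjusted p = 0.843), all by limma.

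The spleen knockout libraries also differed from their controls in other ways besides depth. Of the 10 immediate early genes tested, 4 rose in *Ets1*-KO cells (*Fos*, *Egr1*, *Junb* and *Fosb*), and the list of 14 summed to between 2728 and 3097 RPM against 2360 to 2657 in controls. Proliferation genes summed to between 2114 and 2414 RPM in *Ets1*-KO and between 3221 and 3619 RPM in control libraries, and 5 of the 6 fell. Of the glia and neuron list, 1 of 2 tested rose, *Nefl*, a neurofilament gene, from 27.0 to 65.7 RPM on average, while *Aqp4*, *Gfap*, *Mog*, *Olig1*, *Slc1a2* and *Snap25* were at 0. The mitochondrial share was 14.1%, 14.9% and 21.0% in *Ets1*-KO libraries 1 to 3, so that library 3 stood apart, against 17.3% to 18.6% in controls. Left out in turn, no replicate changed the count of 0 members called. What these differences contribute to the members' values was not tested.

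**Figure D2:**
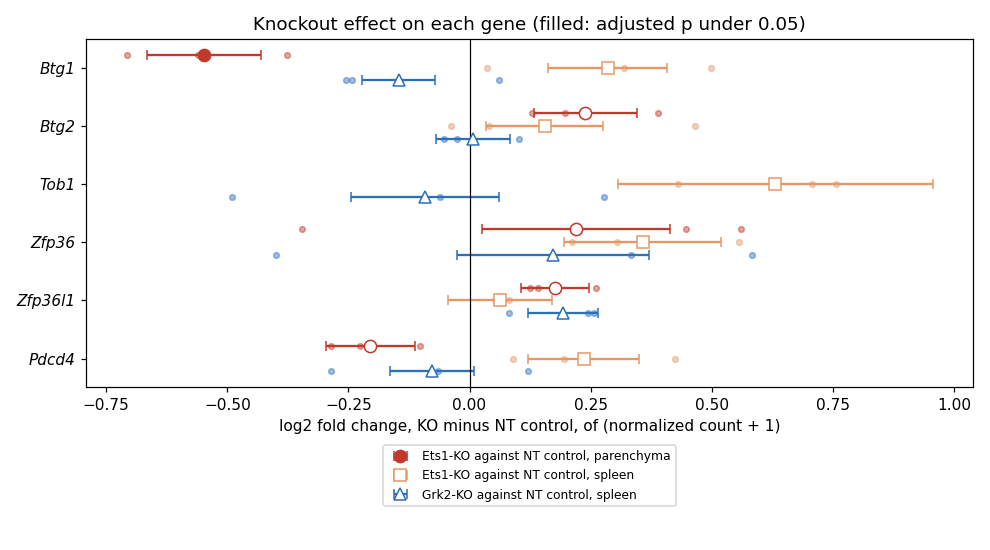
Log2 fold change of KO against NT control for each gene (horizontal axis, log2 of normalized count + 1) in the 3 comparisons, with the SE as error bar, the 3 same-numbered pairs as small points, and a filled symbol where the limma adjusted p was under 0.05. Only *Btg1* in the parenchyma is filled, at -0.55, and its spleen values lie at 0.28 (*Ets1*-KO) and -0.15 (*Grk2*-KO).

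Whether the effect of *Ets1*-KO differed between the tissues was tested directly, on the 3 log2 ratios of each table. The test treated the ratios as independent, although the labels do not say whether the tissues came from the same rats. For *Btg1* the effect in the parenchyma minus that in the spleen was -0.83 (SE 0.17, limma adjusted p = 0.00353), with all 3 pairs below 0 in the parenchyma and all 3 above 0 in the spleen (0.50, 0.04 and 0.32). It was the only one of 5 members tested to pass, against 2.1% of 6520 genes, and 2 of the 5 had an unadjusted p under 0.05, against 13.8%. Since the ratios rest on replicate numbers that are not shown to pair the libraries, the difference was also fitted without pairs, on all 12 libraries, an alternative chosen after seeing the data, and the call remained (limma adjusted p = 0.0443). The call was lost without replicate 1 (adjusted p = 0.0947), without replicate 3 (adjusted p = 0.0539) and without the variance trend (adjusted p = 0.245), while the difference stayed between -0.95 and -0.74 in all settings. *Pdcd4* had the next largest difference, -0.44 (SE 0.14), with the same pattern of pairs, and did not pass (limma adjusted p = 0.105). The differences of *Btg2*, *Zfp36* and *Zfp36l1* were 0.08, -0.14 and 0.11, each smaller than its SE.

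In the third comparison, *Grk2*-KO cells were set against their own spleen controls. GRK2 is a kinase that desensitises G protein-coupled receptors, among them receptors for egress from lymphoid tissue. Here 0 of 6 members tested were called by limma or edgeR, against 1.56% of 6985 genes by limma. DESeq2 also called 0, but it did not give all 6 an adjusted p in every setting. At an unadjusted limma p under 0.05 there was 1, against 10.4% of all genes. That gene was *Zfp36l1*, which read 684, 831 and 790 normalized counts in controls and 817, 879 and 936 in *Grk2*-KO cells. It was higher in each same-numbered pair, the groups overlapped, and the log2 fold change was 0.19 (SE 0.07, limma adjusted p = 0.221).

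*Btg1* read 553, 780 and 787 normalized counts in controls and 576, 653 and 665 in *Grk2*-KO cells, and the change was -0.15 on the log2 scale (SE 0.08, limma adjusted p = 0.491). *Btg2* read 572 ± 29.1 and 577 ± 61.2, with the smallest estimate of all, 0.01 (SE 0.08). *Tob1*, which has 63 to 95 reads per library in this experiment, gave -0.09 (SE 0.15), *Pdcd4* gave -0.08 (SE 0.09) and *Zfp36* gave 0.17 (SE 0.20), with limma adjusted p of 0.891, 0.82 and 0.822. Proliferation genes stood higher in these knockout libraries (1859 to 2370 RPM) than in most controls (1491 to 2119 RPM), and 2 of the 6, *Cdk1* and *Top2a*, rose.

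The effects of *Ets1*-KO and *Grk2*-KO in the spleen were compared on their log2 ratios, each with its own controls. None of the 6 members passed by limma, whose calls made up 1.94% of 6490 genes, nor by edgeR, and 3 had an unadjusted limma p under 0.05, against 12.9% of all genes. These were *Btg1*, with a difference of 0.43 (SE 0.14, limma adjusted p = 0.133), *Tob1*, with 0.72 (SE 0.32, limma adjusted p = 0.315), and *Pdcd4*, with 0.31 (SE 0.15, limma adjusted p = 0.344), all in the direction of a higher value in *Ets1*-KO. The other 3 had differences of 0.15 (*Btg2*), 0.19 (*Zfp36*) and -0.13 (*Zfp36l1*).

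Finally, the other genes of these pathways were described, in 6 lists of 87 genes. In the parenchyma 68 could be tested and 4 were called: 3 rose and 1 fell with the loss of *Ets1*. This count is near the share over all genes, 5.23%, and nothing is read from it about the lists. Across the 64 and 65 tested in the spleen, limma called 0 for *Ets1*-KO and 0 for *Grk2*-KO, with 8 and 1 at an unadjusted p under 0.05 (14.1% and 10.4% over all genes). By edgeR the counts were 2 and 0, and by DESeq2 0 and 0. The 2 called by edgeR in the *Ets1*-KO spleen were *Elavl1*, which encodes the stabilising AU-rich element binder HuR (log2 fold change -0.47, limma adjusted p = 0.093), and the transcription factor *Runx1* (0.40, limma adjusted p = 0.097).

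**Figure D3:**
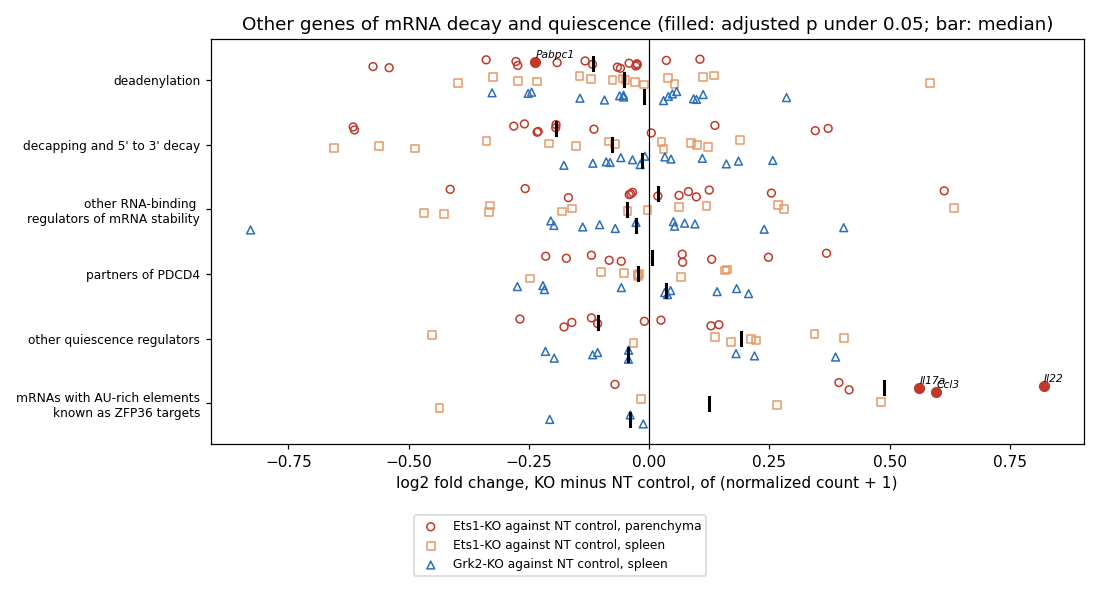
Log2 fold change of KO against NT control (horizontal axis, log2 of normalized count + 1) of the tested genes in 6 lists (vertical axis) for the 3 comparisons, with the list's median as a black bar and filled symbols where the limma adjusted p was under 0.05. The filled symbols are *Pabpc1* on the lower side and *Ccl3*, *Il17a* and *Il22* on the higher side, all in the parenchyma.

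Of the deadenylation genes, the CCR4-NOT and PAN subunits and poly(A)-binding proteins with which BTG and TOB proteins work, 1 of 17 tested was called in the parenchyma, near the 5.23% over all genes. This was *Pabpc1*, the main cytoplasmic poly(A)-binding protein, which read 6438, 6403 and 6423 normalized counts in controls and 5126, 5704 and 5538 in *Ets1*-KO cells, with no overlap. Its log2 fold change was -0.24 (SE 0.06, limma adjusted p = 0.00759). The call was lost without replicate 1 (adjusted p = 0.374), without replicate 2 (adjusted p = 0.152), without the filter on low counts, without the trend and by DESeq2. The list's median was -0.12, beside -0.03 over all genes tested.

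None of the decapping genes (13 tested, median -0.19), the other RNA-binding regulators of stability (13 tested, median 0.02), the partners of PDCD4 (10 tested, median 0.01) or the other quiescence regulators (9 tested, median -0.11) were called in the parenchyma by limma, edgeR or DESeq2. At an unadjusted p under 0.05 there were 5, 2, 0 and 0 of them, against 16.9% of all genes. Over all genes 5.23% were called, and nothing is read from the counts of 0. The quiescence regulators tested included *Foxo1* (log2 fold change 0.13), *Cdkn1b*, which encodes the cyclin-dependent kinase inhibitor p27 (-0.18), and *Slfn2* (-0.01).

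Of 14 mRNAs with AU-rich elements that are known targets of ZFP36 proteins, 6 could be tested in the parenchyma and 3 rose in *Ets1*-KO cells, *Il22*, *Ccl3* and *Il17a*. Over all genes 2.27% were called higher, but the list was drawn up with earlier results of these data known, *Il17a* among them, so its count is a description and not independent evidence of a direction. These encode 2 cytokines and 1 chemokine of effector T cells. *Il22* read 85.0, 79.9 and 54.1 normalized counts in controls and 161, 120 and 107 in *Ets1*-KO cells, a log2 fold change of 0.82 (SE 0.15, limma adjusted p = 3.7e-06). *Ccl3* read 348, 350 and 259 in controls and 550, 473 and 422 in *Ets1*-KO cells, 0.60 (SE 0.09, limma adjusted p = 3.3e-08), and *Il17a* read 390, 340 and 249 against 587, 431 and 421, 0.56 (SE 0.09, limma adjusted p = 3.0e-07). In all 3 genes every knockout library was above every control library, as for 7.87% of the genes tested, and all 3 calls were lost without the variance trend, that of *Il17a* also by DESeq2 without the replicate block (adjusted p = 0.309). The other 3 tested had log2 fold changes of 0.42 (*Ifng*), 0.39 (*Vegfa*) and -0.07 (*Notch1*) and were not called.

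*Ccl3* was also the only listed gene whose *Ets1*-KO effect differed between tissues, by 1.03 (SE 0.21, limma adjusted p = 0.00408), with 1 of 63 genes called, near the 2.1% over all genes. It remained called in the fit without pairs (limma adjusted p = 0.0483). In the spleen its log2 fold change was -0.44 (limma adjusted p = 0.386). The call was lost without replicate 3 (adjusted p = 0.117) and without the variance trend. The mRNAs of the ZFP36 genes themselves were not called in the same libraries, as given above, and their proteins were not measured here.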

How the data were processed

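Bulk 3′ mRNA-seq of 18 rat libraries in 6 groups of 3 was analysed. According to the methods, the authors aligned reads to Rnor_6.0 with STAR 2.7.2b, counted them with HTSeq-count 1.0.0 and divided the counts by DESeq2 2.11.40.7 size factors. The strand setting is not given in the sources used here. The deposited signal values are these normalized counts in 3 tables of 32882 genes. Whole reads were recovered from 100% of positive values (tolerance 0.01). Columns of the authors' own comparisons hold fold changes and p-values and were not used, nor were 8 columns of human values per sample.

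With limma 3.58.1 in R 4.3.3 (lmFit, eBayes with trend), log2(normalized count + 1) was fitted for genes with a mean of at least 10 over a table's 6 libraries, with replicate number as a block after the authors' correction per animal, Benjamini-Hochberg adjustment over all genes and a threshold of 0.05. Differences between effects were tested on log2 ratios of same-numbered pairs, and without pairs in a fit of 12 libraries that was added after seeing the data. Tests were two-sided, and exact permutation tests ran over 20 labellings. The fits were run on simulated counts with the same dispersion for every gene and no replicate effect. Such counts do not check the variance trend on which the fits of the real data lean. RPM used the recovered reads. Alternatives were no block, other pseudocounts (0.1 and 5), filters (none and 50) and scalings, each replicate left out, no trend, edgeR 4.0.16 and DESeq2 1.42.0. With a block each gene has few residual degrees of freedom, and the fits lean on the variance trend. In the main parenchyma fit the prior degrees of freedom were infinite. Each gene's variance there was that of the trend alone, and its own spread had no weight in its SE or p. The named genes are the 7 members, the edited genes, list genes past the threshold (at most 6 per list and comparison) and the 3 genes nearest to each member by correlation. *Elavl1*, *Runx1* and other uncalled list genes were picked after their values were seen. The members and lists were chosen with earlier results of these data known, and some list genes, such as *Il17a*, were known from them.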

Additional observations from a re-analysis of the deposited data

Results flagged for a closer look

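The effect of *Ets1*-KO on *Btg1* differed between the spinal cord parenchyma and the spleen by -0.83 on the log2 scale (limma on the log2 ratios, adjusted p = 0.00353), being below 0 in 3 of 3 pairs of the parenchyma and above 0 in 3 of 3 pairs of the spleen. The effect of *Ets1*-KO on *Ccl3* differed in the other direction, by 1.03 (limma adjusted p = 0.00408). Both differences lose their call when replicate 3 is left out and without the variance trend, and that of *Btg1* also without replicate 1.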

How the results depend on the processing

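Of 401 alternative values for the members' effects, 382 kept direction and side of the threshold, 5 lost their call (all *Btg1*) and 14 changed sign (none of them called in either setting). The count of members called for *Ets1*-KO in the parenchyma went from 1 to 0 without the variance trend and by DESeq2 with the replicate block. The count for the difference between tissues went from 1 to 0 without the trend, and over the replicates left out it was between 0 and 1. The causes were not tested. The count of members whose control groups did not overlap between parenchyma and spleen was 2 of 7 with the spleen controls of the *Ets1* experiment and 4 with those of the *Grk2* experiment. Over all genes the shares were 47.5% and 62.3%. With a replicate left out the count was between 3 and 4, where 2 libraries a group overlap less easily, and no share over all genes is given. Nothing is read from these counts.

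*Btg2* in *Grk2*-KO spleen, at 0.01, became -0.0033 with quantile normalization, -0.012 with upper quartile scaling, -0.0050 with TMM, -0.010 with edgeR, -0.013 with DESeq2 with the block and -0.0096 without it. With a replicate left out it lay between -0.039 and 0.038, *Tob1* between -0.28 and 0.11, *Zfp36* between -0.034 and 0.46 and *Pdcd4* between -0.18 and 0.027. For the difference between tissues *Btg2* lay between -0.050 and 0.26 and *Zfp36* between -0.28 and 0.073, and for that between *Ets1*-KO and *Grk2*-KO *Btg2* between -0.037 and 0.29 and *Zfp36* between -0.20 and 0.46. *Ets1* itself in the *Ets1*-KO spleen lay between -0.14 and 0.0086.

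Without the replicate block the *Btg1* call in the parenchyma remained (limma adjusted p = 0.0053), and the block changed no other member's call in limma. The difference between tissues for *Btg1*, tested on same-numbered ratios, also remained called without the block in a fit of all 12 libraries that was chosen after seeing the data (adjusted p = 0.0443), where 47 genes were called in place of 137. In the same fit of the 2 spleen experiments, 43 genes were called in place of 126 and again 0 members. The deviations of same-numbered libraries correlated with r between -0.0030 and 0.18, not all over 0.1, so the numbers are not shown to pair the libraries. Over all genes, calls without the block were 200 in place of 366 in the parenchyma, 71 in place of 155 for *Ets1*-KO and 19 in place of 109 for *Grk2*-KO in the spleen. Without the trend they were 3, 0 and 0, and by DESeq2 with the block 86, 55 and 12. Without replicate 1 the calls for *Ets1*-KO in the spleen fell to 3, and without replicate 2 those for *Grk2*-KO to 9. Depth limits *Zfp36l2*, with at most 6 reads in any library, and *Tob1* in the parenchyma, with 3 to 15 reads. These were under the count minimum and were fitted only without the filter on low counts, where neither was called (*Tob1* adjusted p = 0.539, *Zfp36l2* between 0.326 and 0.977).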
